A study of Nicotiana tabacum and Solanum tuberosum subsp. andigenum and Nicotiana sylvestris with 28 samples.

Results

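Leaf RNA of Maryland Mammoth (MM) tobacco was compared between plants that had spent 15 days in short days (SD) and plants kept in long days (LD), on 3 of the 28 arrays of the series. The members were taken by their sample titles, which name MM plants of 41 LD and 15 SD against MM plants of 56 LD, replicates 1 to 3. MM is Nicotiana tabacum cultivar Hicks with the Maryland Mammoth mutant allele. It flowers only in SD, whereas Hicks itself flowers at the same time in both day lengths. The SD plants had 41 LD and then 15 SD, the LD plants 56 LD. Days had 8 h of light in SD and 16 h in LD, at 160 and 80 μmol of photons per square metre each second, all at 22 °C. Both were harvested 14 h after the lights came on, so the SD leaves were in darkness and the LD leaves were lit. The study's methods place this 6 h after dusk in SD and 2 h before dusk in LD, and the sample labels place it 8 h after dusk in SD and immediately before dusk in LD. Day length, irradiance and the light at harvest therefore cannot be told apart in the ratios. Each array held 1 SD sample in Cy5 and 1 LD sample in Cy3, with no dyes exchanged in MM, so that a dye effect cannot be told apart from the effect of SD either. The 3 replicates are independent biological samples in the study's methods.

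Leaves are where plants sense day length. In day-length-dependent plants, the timing of light against the circadian clock sets whether leaves send a mobile flowering signal to the shoot tip. A move between day lengths also changes how leaves use their carbon, since starch made in the light feeds the plant through the night. Genes of starch metabolism, cell wall sugars and phenolic compounds were read as groups, in lists written with earlier results of these data known.

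The arrays carry potato cDNA clones, each printed as 2 spots, and tobacco RNA was bound to them across species. Signal of related gene copies therefore cannot be separated. The deposited values are log2 ratios. They are given here as LD over SD, so that a positive ratio means less RNA in SD and a negative ratio more RNA in SD. The deposit does not state this direction. It is likely because the labels put LD in Cy3 and the study expresses its results as LD/SD, and GBSS and STUGE51 then have the study's signs. The signs of these genes are therefore not independent of the study. Fewer cells of a type and less RNA per cell cannot be told apart in leaf RNA. No sequence of a clone is given in the sources used here, so clones are named by gene symbol or by the number of their first spot.

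Of the 10684 clones with a value anywhere in the series, 6883 had a value on at least 1 of the 3 MM arrays. The arrays held values for 6171, 5784 and 5307 clones in replicates 1, 2 and 3. The 4514 clones with a value on all 3 were tested, 3464 of them from both spots and 1050 from 1 spot. Within each array, the 2 spots of a clone had a Pearson's r of 0.872, 0.870 and 0.900. The only leaf marker with a gene symbol on the array was PSBR, a subunit of photosystem II, and 4 of its 6 clones were tested. No tuber or root marker had a symbol there.

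Replicate 2 stood apart from the other two. Across the 4514 clones, which are not independent replicates, replicates 1 and 3 had a Pearson's r of 0.599. Replicate 2 had 0.254 with replicate 1 and 0.269 with replicate 3. The standard deviation of the ratios was 0.714 on replicate 2, 0.590 on replicate 1 and 0.618 on replicate 3. The counts of clones called, and of clones past a test of a difference, are therefore also given without replicate 2.

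**Figure D1:**
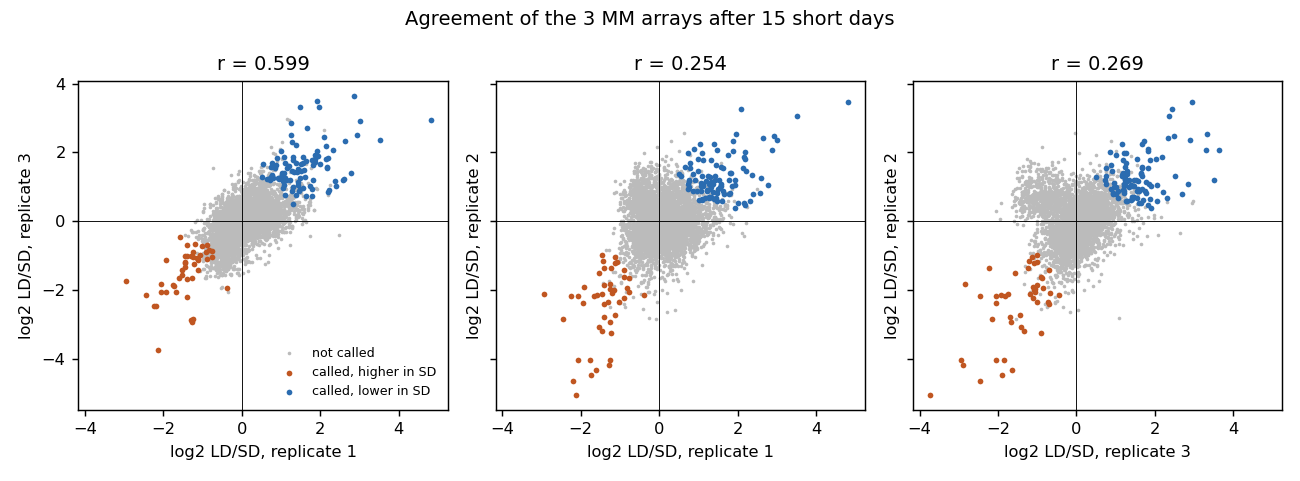
Each point is 1 of the 4514 tested clones, plotted by its log2 LD/SD ratio on 2 of the 3 MM arrays (x and y axes, in log2 units). Grey points were not called, red points were called higher in SD (46) and blue points lower in SD (99); the cloud is elongated for replicates 1 and 3 (r = 0.599) and nearly round in the 2 panels with replicate 2 (0.254 and 0.269).

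After 15 SD, 145 of the 4514 clones were called in MM, which is 3.21%. A clone was called where limma, a linear model that shares the spread over all clones, gave p of 0.05 or less, a Benjamini-Hochberg adjusted p of 0.1 or less and a mean ratio of at least 1 in size, a 2-fold change. In SD, 46 clones rose (1.02%) and 99 fell (2.19%). These numbers would change places if the ratios ran the other way. The median ratio of the clones that rose was -1.62, and of those that fell 1.39, against 0.0059 over all tested clones. Changes of 4-fold or more in the mean of the 3 arrays were seen in 14 clones that rose and 11 that fell. These 4-fold counts were not made without replicate 2. Among the clones that rose most, spot 143318 had -1.74, -4.48 and -1.89, short of 4-fold on replicates 1 and 3. LOC102591352 was more even, with -2.45, -2.85 and -2.15. All 145 had the same sign on the 3 arrays, as had 40.1% of all tested clones. With no size limit 156 passed (3.46%). At the unadjusted p, 722 clones passed, and 198 of these reached the size limit. At the limit itself, the smallest called ratio was 1.00 in size, and the largest ratio past the test and short of the limit was 0.999.

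The count rested on which arrays entered. Without replicate 2, 248 clones were called, 131 of them among the 145, with 76 that rose and 172 that fell. That fit gave PPO, AMYA1, SHKA and IPMK the same standard error of 0.276. The unadjusted p with the size limit also gave 248, so the adjustment removed none. The 248 are therefore not a like count to the 145. Without replicate 1 none was called by limma, although 214 met the unadjusted p with the size limit, and without replicate 3 the count was 31, with 16 that rose and 15 that fell, so that the larger number that fell did not hold there. Same-numbered arrays of 1 and 15 SD deviated together, and with the replicate number as a random block over both days (consensus correlation 0.610) limma called 91 clones. Of the named clones below, that block ended the calls of PPO (spot 137880), IPMK and GBSS, with adjusted p of 0.25, 0.22 and 0.18 from limma. The one-sample test of the study's methods, which does not share the spread, called 0 after adjustment, and 90 when unadjusted with the size limit. It was run here on the 3 arrays of 15 SD alone, whereas the study pooled both days. The 0 is therefore not the study's own result.

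**Figure D2:**
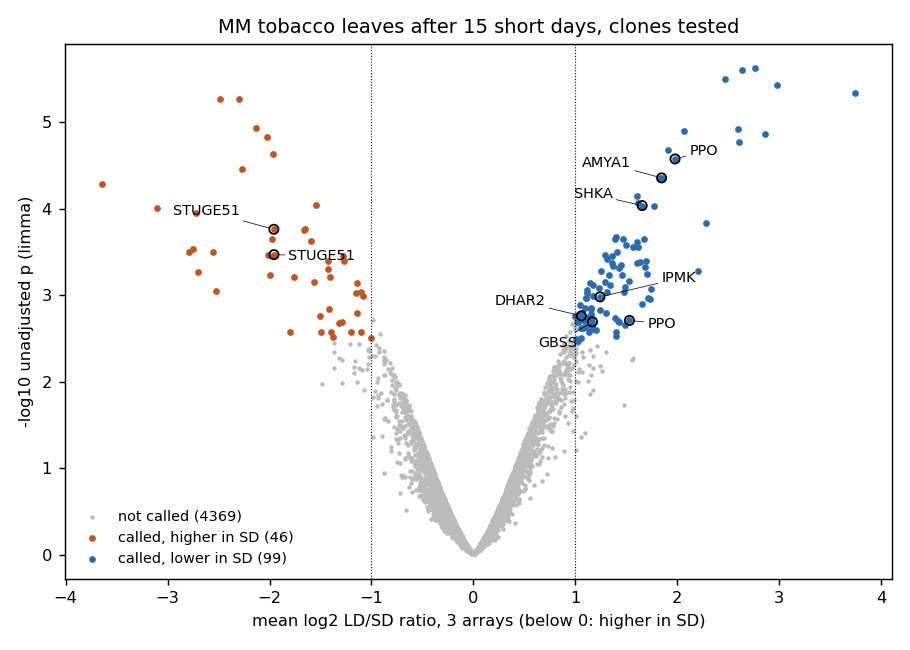
The x axis is the mean log2 LD/SD ratio of each clone over the 3 arrays, and the y axis is -log10 of limma's unadjusted p. Red points were called higher in SD (46), blue points lower in SD (99), and dotted lines mark the size limit of 1. The circled clones of named genes lie on the right for AMYA1, DHAR2, GBSS, IPMK, PPO and SHKA and on the left for the 2 clones of STUGE51.

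The 2 directions differed in where their size came from. In the 46 clones that rose in SD, the median ratio was -2.17 on replicate 2, against -1.40 on replicate 1 and -1.29 on replicate 3. In the 99 that fell, it was 1.17 on replicate 2, against 1.44 and 1.47 on replicates 1 and 3. The most negative single ratio, -5.06, was on replicate 2. The deposited ratios were kept in hundredths before the log was taken, so strongly negative values move in coarse steps, and 3 of the 10 clones that rose most share the same value of -4.06 on replicate 2.

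Few of these clones have a name. The annotation gives a gene symbol to 98 tested clones of 59 genes, and 9 clones of 7 genes were called: 2 clones rose in SD and 7 fell. This is 9.18% of the tested clones with a symbol, beside 3.21% of all tested clones. Another 26 called clones carry only a locus number (8 rose, 18 fell), 2 carry several symbols and 108 have no name here. Of 91 genes with a symbol on the array, 32 had no clone with a value on all 3 arrays, among them CO, F3H, PR1B, GA2OX1 and STUGE45.

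STUGE51, a UDP-glucose epimerase, supplies UDP-galactose to the polysaccharides of the cell wall. Both of its clones rose in SD. The first clone (spot 153358) had ratios of -1.26, -2.95 and -1.67 on replicates 1, 2 and 3. The second (spot 161624) had -1.39, -2.79 and -1.69. All 6 values were below -1, with replicate 2 the lowest on both clones. The means were -1.96 on each, 3.88-fold higher in SD, with standard errors of 0.33 and 0.30 over 3 arrays and limma's adjusted p of 0.032 and 0.026. Without replicate 2 they were -1.46 and -1.54. The other cell wall genes with a symbol on the array, STUGE45 and PME1, had no tested clone, so that 2 of 2 tested clones of the cell wall list rose, beside 1.02% of all tested clones, and both are of 1 gene.

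Genes of the shikimate pathway and of phenolic compounds fell in 3 of 5 tested clones and rose in none, beside 2.19% and 1.02% of all tested clones, with a list median of 1.53. Both PPO clones are among the 3. SHKA, DAHP synthase, which opens the shikimate pathway to the aromatic amino acids, had ratios of 1.31, 1.78 and 1.88 on replicates 1, 2 and 3. Its mean was 1.66 (standard error 0.23, adjusted p = 0.017 from limma), and it was 3.15-fold lower in SD, with all 3 arrays above 1.

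PPO, a polyphenol oxidase that turns phenols into quinones, fell on both clones. The clone read from both spots (137880) had 1.88, 2.34 and 1.73, a mean of 1.98 and a 3.94-fold lower level in SD (standard error 0.24, adjusted p = 0.0075 from limma). The clone read from 1 spot (150205) spread more, with 2.58, 0.82 and 1.20 and a mean of 1.53 (standard error 0.34, adjusted p = 0.074 from limma). Without replicate 1 that mean was 1.01. Replicate 2 was the highest array of the first PPO clone and the lowest of the second. FLS, flavonol synthase, was positive on every array but did not pass the test, with means of 0.64 and 0.22 (adjusted p = 0.25 and 0.68 from limma).

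In starch metabolism, 2 of 5 tested clones fell in SD, beside 2.19% of all tested clones, and none rose, and the list median was 0.91. AMYA1, an α-amylase that cleaves starch, had 2.18, 1.80 and 1.56 on the 3 arrays from 1 spot. It was 3.60-fold lower in SD, with a mean of 1.85 (standard error 0.24, adjusted p = 0.011 from limma). GBSS, the granule-bound starch synthase that makes amylose, had 1.61, 0.60 and 1.29, with replicate 2 the lowest. Its mean was 1.17, 2.25-fold lower in SD (standard error 0.26, adjusted p = 0.074 from limma). A gene of starch breakdown and a gene of starch synthesis were both lower in SD.

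The 3 other starch clones were positive on every array and did not pass. STP-1, a starch phosphorylase, had 1.24, 0.96 and 0.52 (mean 0.91, adjusted p = 0.12 from limma). The clones of R1, the dikinase that phosphorylates starch before its breakdown, had 1.56, 0.06 and 0.74, and 1.60, 0.03 and 0.25. Their ratios on replicate 2 were close to 0 while replicate 1 was above 1.5. Without replicate 2 the first R1 clone was called, with a mean of 1.15.

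Among redox enzymes 1 of 5 tested clones fell, beside 2.19% of all tested clones, and the list median was -0.04. DHAR2, a dehydroascorbate reductase that regenerates ascorbate, had 1.10, 1.33 and 0.75 on the called clone (spot 153593). It was 2.09-fold lower in SD, with a mean of 1.06 (standard error 0.23, adjusted p = 0.071 from limma), and without replicate 2 its mean of 0.93 was under the size limit. The other DHAR2 clone had 0.70, 1.15 and 0.79, a mean of 0.88 and an adjusted p of 0.11 from limma, so that the clones of DHAR2 had overlapping ratios on either side of the size limit. CAT1, a catalase, had means of -0.04 and -0.18 on its 2 clones and changed sign between arrays, with 0.54 and 0.70 on replicate 1 and -0.70 and -1.24 on replicate 2. AOX, the alternative oxidase of mitochondria, had -0.68, 1.05 and -1.20.

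IPMK, an inositol polyphosphate multikinase, was also lower in SD. Its clone had 0.80, 1.68 and 1.26, a mean of 1.24 and a 2.37-fold difference (standard error 0.25, adjusted p = 0.052 from limma). It was lowest on replicate 1, where SHKA and the STUGE51 clones were also closest to 0.

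**Figure D3:**
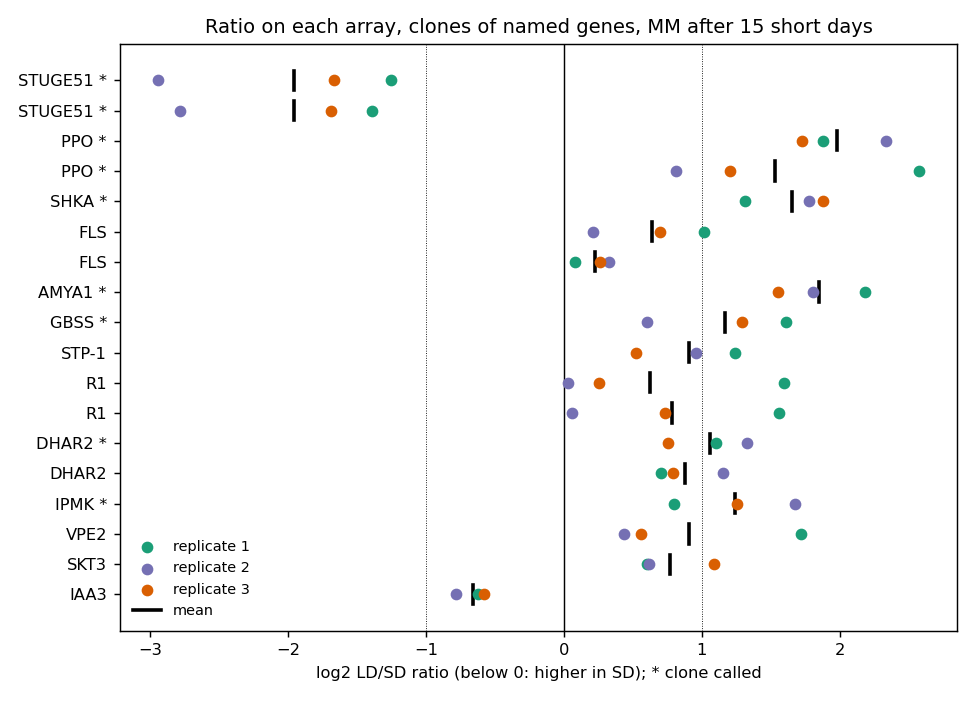
Log2 LD/SD ratios (x axis) of clones of named genes on replicates 1 (green), 2 (purple) and 3 (orange), with black bars for the mean; dotted lines mark the size limit and an asterisk a called clone. The STUGE51 clones lie below -1 on all 3 arrays, whereas PPO, SHKA and AMYA1 lie above 0 on all 3, and replicate 2 of both R1 clones lies at 0.06 or less.

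The other lists held no called clone: 0 of 2 in defence, 0 of 2 each for photoperiod, hormones and amino acid breakdown, 0 of 4 each for photosynthesis and glycolysis, and 0 of 9 for the methyl cycle. In defence, VPE2, a vacuolar processing enzyme, had 1.72, 0.44 and 0.56 (mean 0.90, adjusted p = 0.19 from limma), and without replicate 2 it was called at 1.14. STWRKY8, a WRKY transcription factor, had 0.24, -1.32 and -0.06. BEL5, the homeobox gene whose RNA is known in potato to move from leaf to stolon, had means of 0.47 and 0.20 on its clones. The Aux/IAA genes, repressors of auxin responses, were split: IAA3 was negative on every array, with -0.62, -0.79 and -0.58 (mean -0.66, adjusted p = 0.19 from limma), and IAA2 had -0.01, 0.53 and 0.50. MADS16, a MADS box transcription factor, had -0.71, 0.44 and -1.18. In photosynthesis, the 4 tested PSBR clones had means between -0.40 and 0.30 and a median of -0.10, and none passed.

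Genes printed as several clones show how far the arrays moved together. METK1, S-adenosylmethionine synthetase, the enzyme that makes the methyl donor of the cell, had 9 tested clones and none was called. Their means lay between -0.23 and 0.68. On replicate 1 all 9 were positive, from 0.08 to 0.77, with a median of 0.60. On replicate 2 the median was -0.23, and on replicate 3 it was 0.27. The clones of METK1 share a target, and their median changed sign between arrays.

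MS, methionine synthase, also stood highest on replicate 1, with 5 clones from 0.44 to 0.98, but its medians on replicates 2 and 3 were both just below 0, at -0.03 and -0.09. PHA2, a plasma membrane proton pump, was farther apart: its 3 clones had 0.91 to 1.12 on replicate 1, -1.05 to -0.43 on replicate 2 and 0.12 to 0.16 on replicate 3. PGAM, the phosphoglycerate mutase of glycolysis, had 0.53 and 0.59 on replicate 1 and -1.22 and -0.96 on replicate 2. In the glycolysis list, PK had a mean of 0.34, HXKRP1 of -0.05 and the 2 clones of TK, a transketolase, of 0.12 and -0.28. The 8 clones of GAPDH, the glycolytic dehydrogenase, stayed nearer to 0, with means between -0.07 and 0.21. Over the 98 tested clones with a symbol, 47 were positive on replicate 1 and negative on replicate 2 (48.0%, beside 26.6% of all tested clones), 12 the other way round, and 33 had the same sign on all 3 arrays, 33.7% beside 40.1% of all tested clones. The genes shown by several clones were chosen after their values were seen, and not by number of clones alone. PGAM and CAT1 entered with 2 tested clones each, whereas SS16, with 3, was left out.

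**Figure D4:**
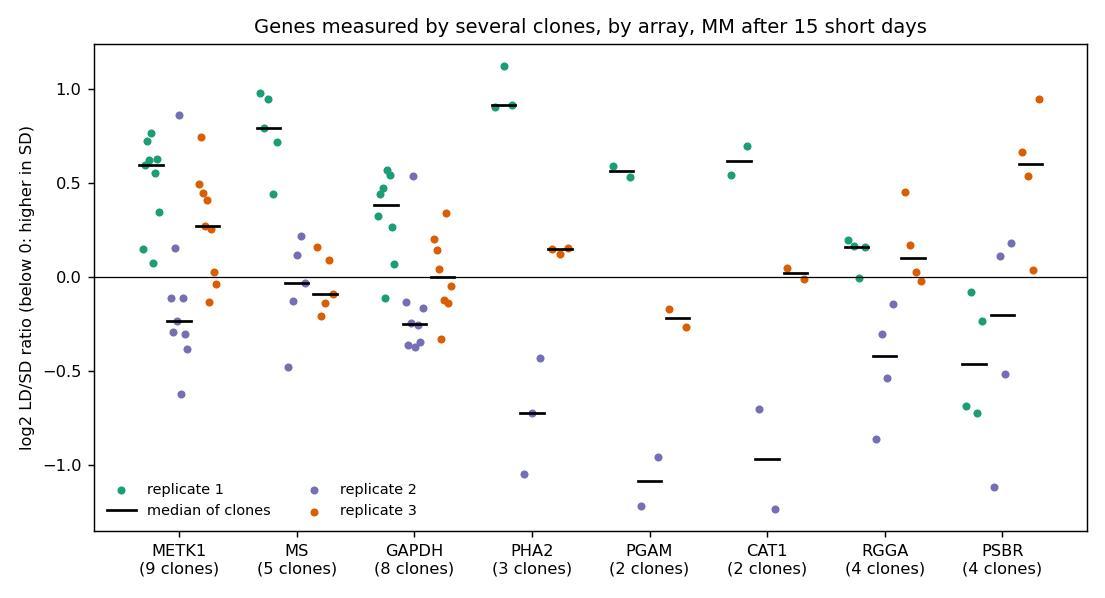
Each point is 1 clone of the gene named on the x axis, and the y axis is its log2 LD/SD ratio, with replicates 1 (green), 2 (purple) and 3 (orange) side by side and black lines for the median over clones. The medians of METK1, MS, GAPDH, PHA2, PGAM, RGGA and CAT1 lie higher on replicate 1 than on replicate 2 (0.60 and -0.23 for METK1), while that of PSBR is lowest on replicate 1.

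Most of the strongest changes were in clones without a name. Of the 10 that rose most, 9 have no name here, and of the 10 that fell most, none has one. The clone with spot 158627 had -2.13, -5.06 and -3.74 and was 12.5-fold higher in SD (mean -3.64, standard error 0.47, adjusted p = 0.012 from limma). The clone with spot 144970 had 4.83, 3.46 and 2.95 and was 13.4-fold lower in SD (mean 3.74, standard error 0.35, adjusted p = 0.0035 from limma). The clone with spot 134866 was the most even of the clones that fell most, with 2.65, 2.43 and 2.33, a mean of 2.47.

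Several loci without a symbol were called on more than 1 clone. LOC102601725 had 8 tested clones, of which 5 fell in SD with means between 1.39 and 1.66. Of the other 3, 2 had means of 1.17 and 1.09 and passed only without replicate 2, and the third had 0.00. On replicate 1 the 5 called clones lay between 1.80 and 2.32, and on replicate 2 between 0.46 and 0.82. LOC102577532 fell on each of 2 clones, with means of 1.74 and 1.40. LOC102577471 rose on both, with -1.45, -3.19 and -1.34, and -1.53, -3.08 and -1.42. LOC102591352, tested on a single clone, rose by more and evenly, with -2.45, -2.85 and -2.15 and a 5.59-fold higher level in SD (adjusted p = 0.0035 from limma).

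After 1 SD, MM plants had been in SD for a single day after 55 LD, which sets the longer stay against the first response. The comparison with 15 SD was made on 4253 clones. None of them (0%) passed limma's test of the difference between 15 and 1 SD, and 25 (0.59%) did so at the unadjusted p. That test leaves out the shared replicate number, so its result does not show that the days were alike. With the replicate number as a block, 0 passed and 99 did so at the unadjusted p. Whether the LD plants of both days were the same plants is not stated, so only the values are set side by side. The called clones had a median of -1.62 after 15 SD and -1.41 after 1 SD where they rose, and of 1.39 after 15 SD and 1.06 after 1 SD where they fell. Nothing is read from these medians, since the clones were chosen on their values after 15 SD. By themselves, the 1 SD arrays gave 5 called clones of 4833 (0.103%). Replicate 2 stood apart there too, with a Pearson's r of -0.095 with replicate 1 and -0.023 with replicate 3. Replicates 1 and 3 had 0.695. The 5 is therefore not read as a smaller response after 1 SD.

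STUGE51 averaged -1.96 and -1.96 after 15 SD and -2.04 and -2.08 after 1 SD on its 2 clones. SHKA averaged 1.66 after 15 SD and 1.56 after 1 SD, and PPO (spot 137880) 1.98 after 15 SD and 1.99 after 1 SD. GBSS averaged 1.17 after 15 SD and 1.04 after 1 SD, and IPMK 1.24 after 15 SD and 1.09 after 1 SD. DHAR2 (spot 153593) averaged 1.06 after 15 SD and 0.70 after 1 SD, the widest gap among these, and with both days pooled its mean of 0.88 was not called. The spread differed more than the mean: PPO ranged from 1.73 to 2.34 after 15 SD, and from 0.24 to 4.08 after 1 SD. VPE2 stood at 0.90 after 15 SD and at -0.63 after 1 SD, with all 3 arrays of each day on opposite sides of 0, but the difference of 1.53 (standard error 0.38) did not pass the adjusted test (adjusted p = 1.00 from limma).

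Hicks, the isogenic line that flowers irrespective of day length, was measured in the same design after 15 SD on 3 arrays. On 3665 shared clones, the difference between MM and Hicks passed limma's test for 0 (0%), and for 111 (3.03%) at the unadjusted p. Leaving out arrays gave 0 to 4 clones, the 4 without Hicks replicate 3. Hicks alone gave 26 called clones of 4231 (0.615%). Of the 127 called MM clones with a value in Hicks, 23 were also called there, in the same direction, which is 18.1% of the MM list and 88.5% of the Hicks list. By sign, 122 of the 127 ran the same way in both lines (96.1%), as did 73.5% of all shared clones.

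The ratios of called clones were nearer to 0 in Hicks. Their median was -1.57 in MM and -0.99 in Hicks where they rose, and 1.37 in MM and 0.78 in Hicks where they fell. No test was made of this, since the clones were chosen on their MM values. STUGE51 averaged -1.96 on both clones in MM, and -0.86 and -1.18 in Hicks, where its arrays ran from -1.60 to -0.20 and from -1.58 to -0.74. The differences of -1.09 (standard error 0.47) and -0.77 (standard error 0.39) did not pass (adjusted p = 1.00 from limma on both). PPO (spot 137880) averaged 1.98 in MM and 0.41 in Hicks, whose arrays ran from -0.60 to 1.36. SHKA averaged 1.66 in MM and 1.09 in Hicks and was positive on all arrays of both lines. The arrays of IPMK and GBSS overlapped between the lines, with means of 1.24 in MM and 1.44 in Hicks for IPMK, and 1.17 in MM and 1.00 in Hicks for GBSS.

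**Figure D5:**
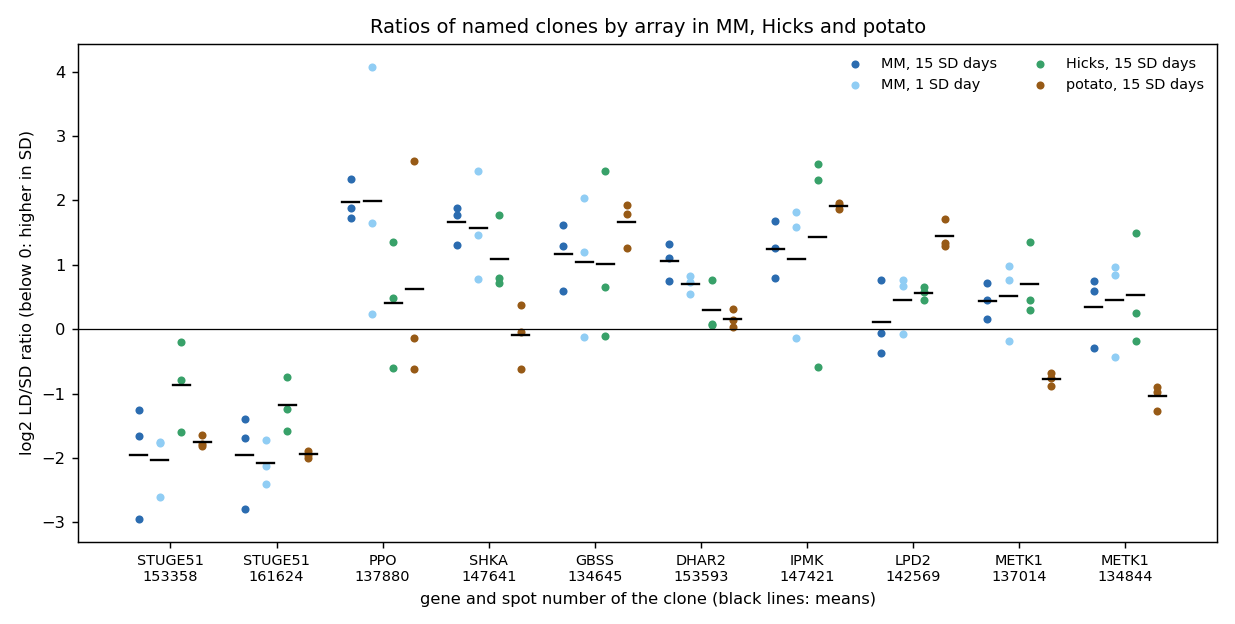
Log2 LD/SD ratios (y axis) of clones of named genes on each array of MM after 15 SD, MM after 1 SD, Hicks after 15 SD and potato after 15 SD, from left to right at each clone, with black lines for the means; the number under a gene is the clone's spot. STUGE51 lies below 0 in every group, SHKA lies above 0 in tobacco and on both sides of 0 in potato, and all 3 METK1 arrays lie below 0 in potato and in no other group.

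Potato, the species the array was made for, forms tubers in SD and was treated in the same way, with petioles harvested beside the leaves by the study's methods. Here the difference from MM passed limma's test for 184 of 4322 shared clones (4.26%), with the ratio lower in MM for 107 and higher in MM for 77, and 152 of them differed by at least 1. The count depended on the arrays, with 823 without MM replicate 2 and 32 without potato replicate 2. Species, binding across species, petioles and the potato array with exchanged dyes cannot be told apart in these differences. Of the 132 called MM clones with a value in potato, 41 were called there in the same direction, which is 31.1% of the MM list and 18.2% of the 225 clones called in potato among the shared ones. Over all 8037 clones tested in potato, 452 were called (5.62%). By sign, 120 of the 132 (90.9%) ran the same way in both species, as did 63.6% of all shared clones. The difference was past the test for 31 of the 132, and in 29 of these the potato ratio was smaller in size, whatever its sign. Nothing is read from this, since the clones were chosen on their MM values.

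STUGE51 rose in SD in both MM and potato, with -1.96 and -1.96 in MM and -1.75 and -1.95 in potato. Without replicate 2 the MM means were -1.46 and -1.54. The MM arrays ran from -2.95 to -1.26 and from -2.79 to -1.39, and the potato arrays from -1.81 to -1.64 on the first clone and at -1.89 or lower on the second. The differences, -0.21 (standard error 0.39) and -0.01 (standard error 0.35), did not pass. GBSS and IPMK also fell in potato, with 1.17 in MM and 1.66 in potato for GBSS, and 1.24 in MM and 1.92 in potato for IPMK. Neither difference passed (adjusted p = 0.45 and 0.22 from limma).

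SHKA differed between the MM and potato arrays. It had 1.31 to 1.88 in MM, and -0.61, -0.05 and 0.38 in potato, so that the arrays did not overlap. The difference of 1.75 (standard error 0.30) had an adjusted p of 0.026 from limma. AMYA1 averaged 1.85 in MM and 0.78 in potato, and DHAR2 (spot 153593) 1.06 in MM and 0.16 in potato, and both differences passed. For PPO the potato arrays ran from -0.62 to 2.61, and the difference of 1.36 (standard error 0.70) did not pass. METK1 also had the higher ratio in MM, here beside negative ratios in potato: of the 8 clones measured in both, 5 passed, by 1.13 to 1.39.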

How the data were processed

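The authors hybridized leaf RNA of MM plants moved to SD, and of plants left in LD, to potato cDNA arrays with 2 colours. LOWESS normalization was done by the authors, who deposited log2 ratios of 28 arrays as 1 table. The submitters' processing notes name limma, without a version. Scanner intensities are not used here. The files name no clones. A platform annotation of 2016 lists 1810 probes, 1630 with 1 symbol, and its pairs gave the layout by which the spots of a clone were averaged.

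Spots measured on each of the 3 arrays entered a fit by limma 3.58.1 (lmFit, eBayes) in R 4.3.3, with Benjamini-Hochberg adjustment over all clones. Differences from MM after 1 SD, Hicks and potato were called at an adjusted p of 0.1 or less. The potato array with exchanged dyes was averaged with its partner. The thresholds are those of the study's methods, with limma in place of the t-test. The number of arrays limits the precision. The fits were first tested on simulated data, with 200 clones changed by 1.5 on the log2 scale. MM against 0 recovered 150 of them, with 9 false calls. The differences recovered 108 for 1 SD, 142 for Hicks and 154 for potato, with 13, 23 and 33 false calls. The simulated noise was drawn separately for each clone and array. It held no array that stood apart and no arrays that deviated together, so these numbers do not carry over to the real arrays.

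The replicate numbers of the labels paired the MM arrays of 1 and 15 SD: deviations of same-numbered arrays from their day's mean had r of 0.547, 0.756 and 0.512.

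Members and lists were chosen with earlier results of these data known. The text names all called clones with a symbol, every clone of the starch, cell wall, phenolic, photosynthesis, redox and defence lists, up to 4 of each other list, and a few of the strongest clones and differences. The list of housekeeping genes had no clone with a symbol. Alternatives covered centring, scaling, spots, missing values, thresholds, variance, the dye term, pairing and each replicate left out.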

Additional observations from a re-analysis of the deposited data

Results flagged for a closer look

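The LD/SD ratio differed between MM and potato for 184 clones by the test of the difference itself (limma, adjusted p of 0.1 or less). A different response to SD cannot be told apart here from binding across species, the petioles in potato or its array with exchanged dyes. All differences are MM minus potato on the log2 LD/SD scale. For 1 clone each of 3 genes the ratio was higher in MM, that is, RNA in SD relative to LD was lower in MM: by 1.75 for SHKA (1.66 in MM and -0.09 in potato, adjusted p = 0.026 from limma), by 1.07 for AMYA1 (1.85 in MM and 0.78 in potato, adjusted p = 0.071) and by 0.90 for the called clone of DHAR2 (1.06 in MM and 0.16 in potato, adjusted p = 0.097).

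The S-adenosylmethionine synthetase METK1 differed on 5 clones. The differences were 1.22, 1.39, 1.27, 1.35 and 1.13 for the clones with spots 137014, 134844, 156267, 139400 and 158666, with adjusted p of 0.037, 0.061, 0.040, 0.037 and 0.072 from limma. Their means were 0.12 to 0.44 in MM and -1.13 to -0.78 in potato. The clones share a target and are not independent. LPD2, a dihydrolipoamide dehydrogenase of amino acid breakdown, ran the other way, with a difference of -1.34 (0.11 in MM and 1.45 in potato, adjusted p = 0.069 from limma). Its MM arrays had 0.77, -0.38 and -0.06 and its potato arrays 1.34, 1.29 and 1.72. The differences of AMYA1, DHAR2, METK1 and LPD2 did not pass when any 1 of the potato replicates was left out, and that of SHKA did not pass without potato replicate 1 or 2. Without MM replicate 1, AMYA1, DHAR2 and the METK1 clones with spots 134844 and 158666 did not pass, and without MM replicate 3 these METK1 clones and LPD2 did not.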

How the results depend on the processing

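The 145 calls after 15 SD became 88 at an adjusted p limit of 0.05 and 91 with the random replicate block over both days. The methods' t-test, run on these 3 arrays and not on both days pooled, gave 0 with Benjamini-Hochberg adjustment or a q-value. It gave 90 at the unadjusted p and size limit. Leaving out a replicate gave 0 to 248. Without replicate 2 the standard error was the same for the named clones given above, so that count followed the size limit. The cause of the other shifts was not tested, beyond that fewer arrays entered. Centring, scaling, spot rules, missing values, robust variance, the spread shared over both days, pooled days and the dye term gave 104 to 146, and no limit on size gave 156. The share that fell was 68.3%, 65.3% to 67.4% under centring and scaling, 56.7% with the spread shared over both days, 58.2% with the random block and 48.4% without replicate 3. The pairing with Hicks and potato is by number only (same-numbered deviations had r of -0.085, 0.189 and 0.143, and -0.058, 0.053 and -0.192): a replicate block gave 0 for Hicks and 176 for potato. For 1 SD the block gave 0, and the random block ended the calls given above. AMYA1 and PPO (spot 150205) had no spot with a value on every 1 SD array and were not tested under the random block. Leaving out an array gave 0 each time for 1 SD, 0 to 4 for Hicks and 32 to 823 for potato, with 116 without MM replicate 1 and 41 and 47 without potato replicates 1 and 3. Centring gave 230 for potato. No mean of a called clone with a symbol changed sign. Means of clones that had not been called did so 99 times, over 52 clones. Of 17 alternatives, the call was kept in 13 for SHKA and both STUGE51 clones, 12 and 6 of 13 for the PPO clones, 10 for IPMK, 9 for DHAR2 and 8 for GBSS, and in 10 of 13 for AMYA1. Every call was lost without replicate 1 and by the methods' t-test. STP-1 was called only with the dye term subtracted (1.10), and VPE2, 1 clone of R1 and 1 of SS16 only without replicate 2 (1.14, 1.15 and 1.13).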

Other observations

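Several genes with a symbol outside the lists, apart from the called IPMK, were measured after 15 SD. SKT3, a potassium channel, had 0.60, 0.62 and 1.09 on the 3 arrays (mean 0.77, adjusted p = 0.15 from limma), and KST1, a potassium channel of guard cells, had a mean of 0.15. CDPK2, a calcium-dependent protein kinase, was positive on every array with a mean of 0.44. NDPK1, a nucleoside diphosphate kinase, had -0.04, -1.33 and -0.56 and PPA1 had -0.01, -1.29 and -0.37, so that the size of both came mainly from replicate 2. SHMT, serine hydroxymethyltransferase, had a mean of 0.27. The branched-chain aminotransferase BCAT1, which is in the list of amino acid breakdown, had a mean of -0.13. None of these passed the test.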
